A study of Glycine max with 8 samples.

Results

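The transcripts described here are 5 soybean (Glycine max) transcripts of abscisic acid (ABA) synthesis, turnover and response, out of 77681 named entries on a 180K soybean array. They are the putative 9-cis-epoxycarotenoid dioxygenases Glyma.08G176300-1 and Glyma.08G255400-1, the putative ABA deficient 2 Glyma.11G180800-1, the ABA 8′-hydroxylase Glyma.16G109300-1 and the ABA-responsive protein-related Glyma.19G100000-1. They were taken by name from a list of the study. It holds transcripts higher in the first drought than in the watered control, and higher again in the second drought. Their values in DR1 against WT1 and in DR2 against DR1 therefore chose them and are given as a description without a test. Each is read by 2 probes, and 5 of the 5 passed the filter on dim probes that left 55087 entries for the test. A transcript could pass that filter through the condition in which it was bright, which is how 2 of these transcripts with no signal well above background in WT1 passed.

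Leaves of seedlings of the cultivar Daepoong were compared in 4 conditions, with 2 arrays for each. WT1 seedlings had been grown for 7 days and then kept on water. DR1 seedlings had been grown for 7 days and then had the watering tray withdrawn for 4 days. The study sampled WT1 alongside DR1, from a separate watered plate. WT2 leaves came from DR1 plants put back on water for 1 day, and DR2 leaves from such plants after a second period of 4 days without water. For the first drought, 4 hours is written in the DR1 labels, but 4 days in the treatment protocol and the study's methods, and 4 days was used here. The study describes 2 independent experiments with primary leaves of several plants pooled. No continuously watered plants of the age of the WT2 and DR2 plants were among the samples, so the age of the plants and the second treatment cannot be told apart. The arrays measure leaf RNA in bulk, in which fewer cells of a type and less RNA per cell cannot be told apart.

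ABA is the plant hormone that accumulates as leaves lose water, closes the stomata and switches on many dehydration genes. It is made from carotenoids: a 9-cis-epoxycarotenoid dioxygenase (NCED) cuts an epoxycarotenoid in the plastid to release xanthoxin, the step regarded as limiting, and the short-chain dehydrogenase ABA2 turns xanthoxin into abscisic aldehyde in the cytosol. The hormone is removed mainly by ABA 8′-hydroxylases, cytochrome P450 enzymes of the CYP707A family. These roles were worked out largely in Arabidopsis, and the soybean transcripts carry them here by similarity.

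The reading software called 55.2% to 65.2% of an array's probes well above background and marked 0 spots as saturated. One slide held WT1 with DR1 and a second slide WT2 with DR2, so that WT2 against WT1 and DR2 against DR1 cross slides. The WT2 arrays stood apart from each other in a way that touches these transcripts. Of 1990 other transcripts called higher in DR1 than in WT1, 92.1% were brighter on WT2 replicate 1 than on WT2 replicate 2, with a median gap of 0.99 on the log2 scale. Over all transcripts tested that share was 46.2% and the median gap was -0.05. The leaf label was checked with 16 entries for chlorophyll-binding proteins and the RuBisCO small subunit, all 16 detected on both arrays of WT1, DR1 and WT2 and 11 of them in DR2. Their median intensity was 19806 in WT1, 3455 in DR1, 12274 in WT2 and 200.5 in DR2, lower in DR1 than in WT1 and lower in DR2 than in WT2. These entries were taken from annotation of transcripts that the study selected on these arrays, so this fall is not independent of that selection. The part of this fall in the results was not tested.

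Intensities below are in arbitrary units after background correction and quantile normalization, averaged on the log2 scale over the probes of a transcript. They depend on the probe and are compared only within a transcript. Calls needed a change beyond 4-fold, or 2 in log2 units, and a Benjamini-Hochberg adjusted P below 0.05 in a limma model over the 8 arrays. Standard errors (SE) are those of that model and rest on 2 arrays per condition.

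The cleavage step was represented by both NCED transcripts. Glyma.08G176300-1, whose Arabidopsis equivalent is NCED3, the main drought-induced NCED of that plant, had intensities of 526 and 728 in WT1, 53568 and 48890 in DR1, 8819 and 183 in WT2, and 250446 and 241312 in DR2. The DR1 arrays lay close together and above both WT1 arrays, and the DR2 arrays close together and above both WT2 arrays. The WT2 arrays lay on either side of WT1. The mean change was 6.37 (SE 1.38) on the log2 scale for DR1 minus WT1, an 82.7-fold difference, and 2.26 (SE 1.38) for DR2 minus DR1, a 4.80-fold difference. The same-numbered pairs of arrays gave 2.23 and 2.30 for DR2 minus DR1, far closer than that SE.

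The SE of Glyma.08G176300-1 was carried by the WT2 arrays, whose SD was 3.95 on the log2 scale against 0.04 in DR2, 0.09 in DR1 and 0.33 in WT1. Because the model pools the spread over conditions, this transcript alone of the 5 missed the call for DR2 against DR1. It was called there when either WT2 array was left out or when the fit held only the DR2 and DR1 arrays, with SEs of 0.22 and 0.17. Leaving out either WT1 array ended its call for DR1 against WT1 at changes of 6.14 and 6.60, again with the WT2 spread in the fit.

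The other NCED, Glyma.08G255400-1, whose Arabidopsis equivalent is NCED5, gave 11.4 and 11.8 in WT1, 126 and 123 in DR1, 28.5 and 11.2 in WT2, and 1393 and 917 in DR2. Neither of its probes was well above background in WT1, so its rise in DR1 has only a lower bound, at least 4.99-fold, with a measured difference of 3.43 (SE 0.41) on the log2 scale. On WT2 replicate 1 only 1 of its probes was well above background, and on replicate 2 neither was. DR2 exceeded DR1 by 3.18 (SE 0.41) on the log2 scale, 9.06-fold, with the DR2 arrays both above the DR1 arrays.

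The xanthoxin step, catalysed by ABA2 in Arabidopsis, had the largest changes of the 5 transcripts in DR2 against WT2 and DR2 against DR1. Glyma.11G180800-1 had intensities of 8.72 and 10.1 in WT1, 1709 and 752 in DR1, 131 and 22.9 in WT2, and 98639 and 120162 in DR2. It was not well above background in WT1, and the conditions did not overlap, in the order WT1, WT2, DR1 and DR2. Its rise in DR1 was at least 45.3-fold over WT1, with a measured difference of 6.91 (SE 0.71) on the log2 scale. From the first to the second drought the difference was 6.59 (SE 0.71), or 96.0-fold for DR2 over DR1, rank 55 from the top among the 55087 transcripts tested. Set against WT2, DR2 was higher by 10.95 (SE 0.71), rank 5 from the top. Both probes showed the rises into DR1 and DR2, although the rise in DR1 was 8.27 with one and 5.56 with the other on the log2 scale. DR2 minus DR1 was 6.40 and 6.77 with the same probes. WT2 overlapped WT1 with the second of these probes, at 14.9 on WT2 replicate 2 and 17.3 on WT1 replicate 2. Neither of these signals was well above background, so the order above holds for the mean over probes.

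Turnover was represented by the 8′-hydroxylase Glyma.16G109300-1, whose Arabidopsis equivalent is CYP707A1. Its intensities were 30.1 and 33.5 in WT1, 224 and 173 in DR1, 43.1 and 26.2 in WT2, and 1327 and 1981 in DR2. Transcripts for making ABA and a transcript for removing it were thus both brighter in DR1 than in WT1 and in DR2 than in WT2. DR1 exceeded WT1 by 2.63 (SE 0.31) on the log2 scale, 6.20-fold, with WT1 measured above background by 1 probe on 1 array. DR2 exceeded DR1 by 3.04 (SE 0.31), 8.25-fold. One of its 2 probes had a local background of 102 units on DR2 replicate 2, where DR2 minus DR1 was 3.05 with that probe and 3.04 with the other.

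The array holds 2 further entries of the same locus, which the rule did not use but which read the same gene. The unique-exon entry Glyma.16G109300-1_UE had intensities of 124.8 and 92.2 in DR1, against 32.3 and 31.7 in WT1, and 988 and 1012 in DR2. The second transcript Glyma.16G109300-2 had 51.6 and 36.0 in DR1, against 16.2 and 15.3 in WT1, and 167 and 287 in DR2. Both were called higher in DR2 than in DR1, with changes of 3.22 and 2.35 on the log2 scale. Neither was called for DR1 against WT1, where both were below background in WT1 and the lower bounds were 3.35-fold and 1.72-fold. The 8′-hydroxylase locus therefore passed the 4-fold threshold of the first drought in 1 of its 3 entries.

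The ABA-responsive protein-related Glyma.19G100000-1 carries a GRAM domain, a lipid-binding fold, and takes its name from its Arabidopsis equivalent. It had intensities of 286 and 383 in WT1, 1569 and 1183 in DR1, 435 and 514 in WT2, and 45660 and 20590 in DR2. It was well above background on every array, and its WT2 arrays both lay above its WT1 arrays and below its DR1 arrays. Its change for DR1 minus WT1, 2.04 (SE 0.37) on the log2 scale, was the one nearest the threshold of 2, with same-numbered pairs at 2.45 and 1.63. Of the entries of the 5 loci, the closest below the threshold was Glyma.16G109300-1_UE at 1.74. The rise of Glyma.19G100000-1 came mostly in the second drought, where DR2 exceeded DR1 by 4.49 (SE 0.37), 22.5-fold.

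**Figure D1:**
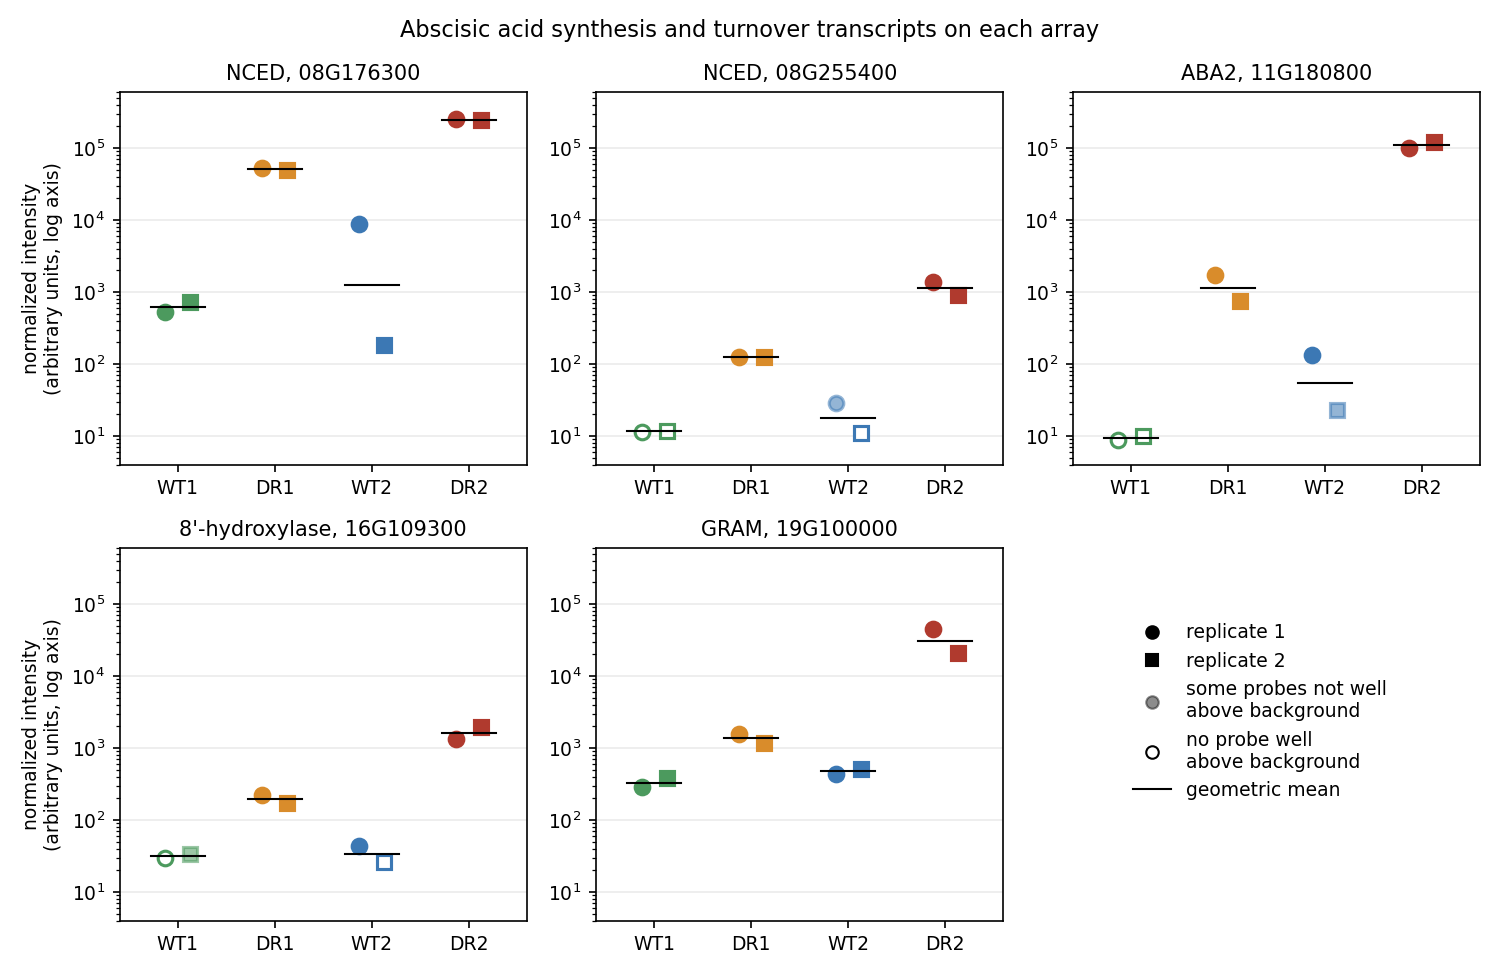
Normalized intensity (arbitrary units, log axis) of the 5 transcripts on each of the 8 arrays, by condition in order of treatment, with circles for replicate 1, squares for replicate 2, pale or open symbols where some or no probes were well above background, and lines at geometric means. Every DR2 point lies above every DR1 point of the same transcript, and the WT2 points of Glyma.08G176300-1 stand at 8819 and 183.

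In counts, 5 of the 5 transcripts were called higher in DR1 than in WT1, where the calls over the whole array were 3.62% higher and 3.85% lower, and 4 of 5 were called higher in DR2 than in DR1, where 6.86% were called higher and 8.45% lower. Over the whole array, 0.742% of transcripts were called higher in both steps. These counts repeat the rule that chose the transcripts and say nothing further about them. The same-numbered pairs of arrays moved upward in 10 of 10 cases for DR1 minus WT1 and in 10 of 10 for DR2 minus DR1, and the change was past 4-fold in 9 and 10 of them.

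The second drought was also set against the re-watered leaves on its own slide. DR2 shares its arrays with the rule, so these values are descriptions too. All 5 transcripts were called higher in DR2 than in WT2, against 13.1% of all transcripts tested called higher and 15.2% lower, with changes of 7.60 (SE 1.38) for Glyma.08G176300-1, 5.99 (SE 0.41) for Glyma.08G255400-1, 5.59 (SE 0.31) for Glyma.16G109300-1 and 6.02 (SE 0.37) for Glyma.19G100000-1 on the log2 scale. The change of Glyma.08G176300-1 depended on the WT2 array used, at 10.39 against WT2 replicate 2 alone and 4.80 against WT2 replicate 1 alone. For the other 4 transcripts, the changes without one WT2 array stayed above 5. Glyma.08G255400-1 and Glyma.16G109300-1 had no probe well above background on WT2 replicate 2, so their changes against that array are limited by the background. Other ways of processing gave changes as low as 4.07 and 4.31 for these transcripts.

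**Figure D2:**
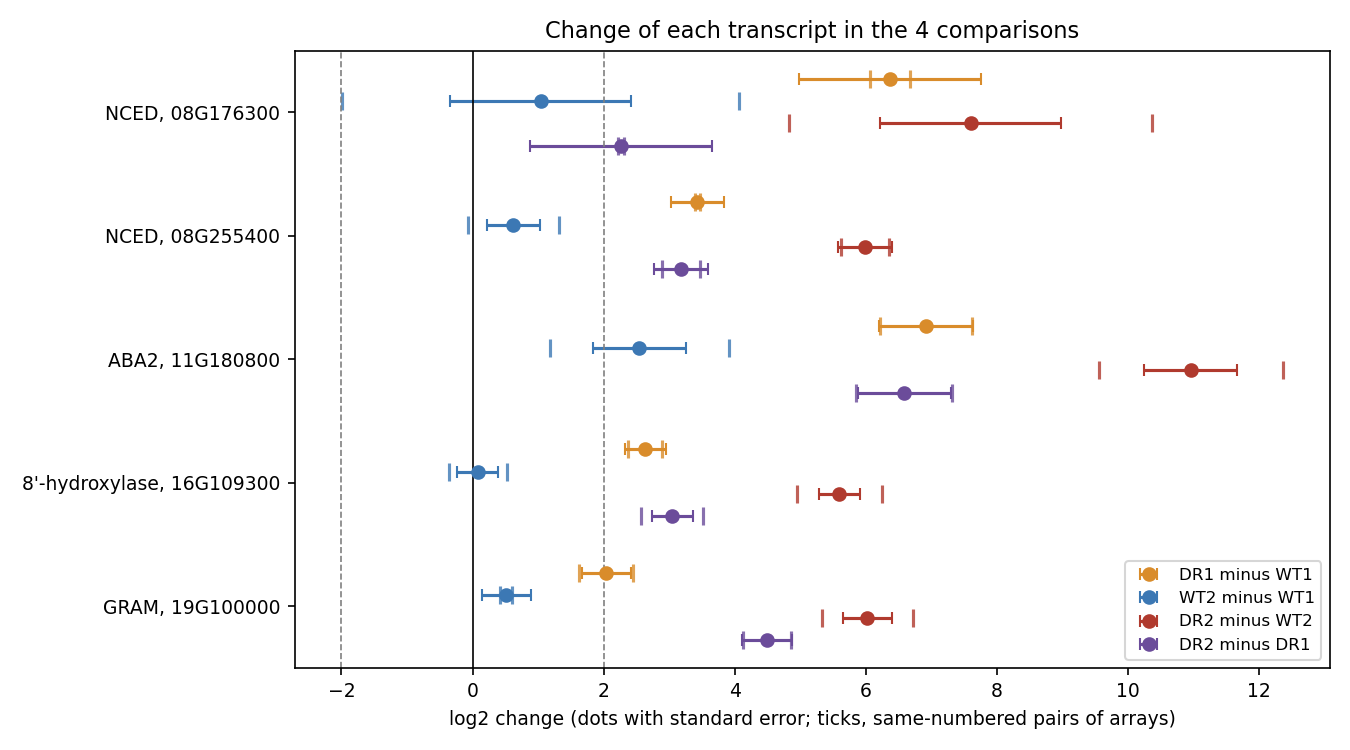
Log2 change of each transcript in 4 comparisons, with dots for the mean change, bars for its SE in the limma model, ticks for the same-numbered pairs of arrays and dashed lines at the 4-fold threshold. For Glyma.08G176300-1 the ticks of the comparisons with WT2 lie far apart, at -1.99 and 4.07 for WT2 minus WT1, while those of DR2 minus DR1 lie at 2.23 and 2.30.

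Whether the response to drought itself was larger the second time was described by the difference (DR2 - WT2) - (DR1 - WT1), which removes a constant difference between slides. It was 4.04 (SE 1.01) on the log2 scale for ABA2, 3.98 (SE 0.53) for the GRAM transcript, 2.96 (SE 0.44) for the 8′-hydroxylase and 2.56 (SE 0.58) for Glyma.08G255400-1. These 4 were called, and 7.62% of all transcripts tested were called in that direction and 10.4% in the other. The first rise of ABA2 and of Glyma.08G255400-1 has only a lower bound, so the size of their difference is not settled. The call of ABA2 was lost at 3.82 with the processed signal, at 3.93 without WT1 replicate 2 and at 2.83 with one of its probes. Glyma.08G176300-1 gave 1.23 (SE 1.96), with same-numbered arrays at -1.84 and 4.30, and its difference ran from 4.02 without WT2 replicate 1 to -1.57 without WT2 replicate 2. The direction of this difference was therefore set by which WT2 array was used. The call of Glyma.08G255400-1 was lost, at 1.88, without WT2 replicate 2.

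The comparison of WT2 with WT1 asks whether the transcripts had returned to the watered level after 1 day of re-watering. It was not used to choose them, although it shares the WT1 arrays with the rule. None of the 5 transcripts was called in limma's test, against 0.387% of all transcripts called higher and 0.049% called lower, and 1 of the 5 had an unadjusted p under 0.05. The changes for WT2 minus WT1 were 1.04 (SE 1.38, adjusted p = 0.73) for Glyma.08G176300-1, 0.62 (SE 0.41, adjusted p = 0.45) for Glyma.08G255400-1, 2.55 (SE 0.71, adjusted p = 0.1) for ABA2, 0.08 (SE 0.31, adjusted p = 0.92) for the 8′-hydroxylase and 0.51 (SE 0.37, adjusted p = 0.5) for the GRAM transcript. A missed threshold with 2 arrays per condition does not show that the levels were equal. Glyma.08G255400-1 had no probe well above background in WT1 or on WT2 replicate 2, and ABA2 had none in WT1. The 8′-hydroxylase had none on WT1 replicate 1 and WT2 replicate 2. The changes and p-values of these transcripts rest in part on values at the background. They cannot show whether the level had returned. For ABA2 both WT2 arrays lay above both WT1 arrays in the mean over probes, but only replicate 1 gave a bounded rise over WT1. It was at least 5.26-fold higher on that array, while replicate 2 lay under the lowest signal well above background in WT1.

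The replicates of WT2 differed most for the synthesis genes. Glyma.08G176300-1 was 48.2-fold brighter on WT2 replicate 1 than on replicate 2, the 32nd widest gap of the 55087 transcripts. On replicate 1 it stood 3.83 above the WT1 mean on the log2 scale, which left 60.2% of its first-drought rise on that scale, and on replicate 2 it stood at -1.76, below the WT1 mean. ABA2 was 5.74-fold brighter on replicate 1, where it stood 3.81 above the WT1 mean, than on replicate 2, where it stood 1.29 above it. No probe of ABA2 was well above background in WT1, so neither distance from the WT1 mean is a measured rise. The gap was 2.55-fold for Glyma.08G255400-1 and 1.65-fold for the 8′-hydroxylase, again with replicate 1 higher, although both had a WT2 array with no probe well above background. The GRAM transcript went the other way, with replicate 1 lower than replicate 2 by 0.24 on the log2 scale, less than the typical gap of 0.35 over all transcripts tested.

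The changes for WT2 against WT1 followed these gaps. Without WT2 replicate 2, Glyma.08G176300-1 was 3.83 higher and ABA2 was 3.81 higher than WT1 on the log2 scale. Such a fit holds a single WT2 array, assumed to vary like the other conditions, so only the changes are given. ABA2 had no probe well above background in WT1, so its change has only a lower bound, at least 5.26-fold. Without WT2 replicate 1, Glyma.08G176300-1 stood at -1.76. The raw signals of both probes of Glyma.08G176300-1 showed the gap, at 10326 and 8758 units on WT2 replicate 1 and 250 and 224.5 units on replicate 2, over a local background of 30 to 33 units.

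**Figure D3:**
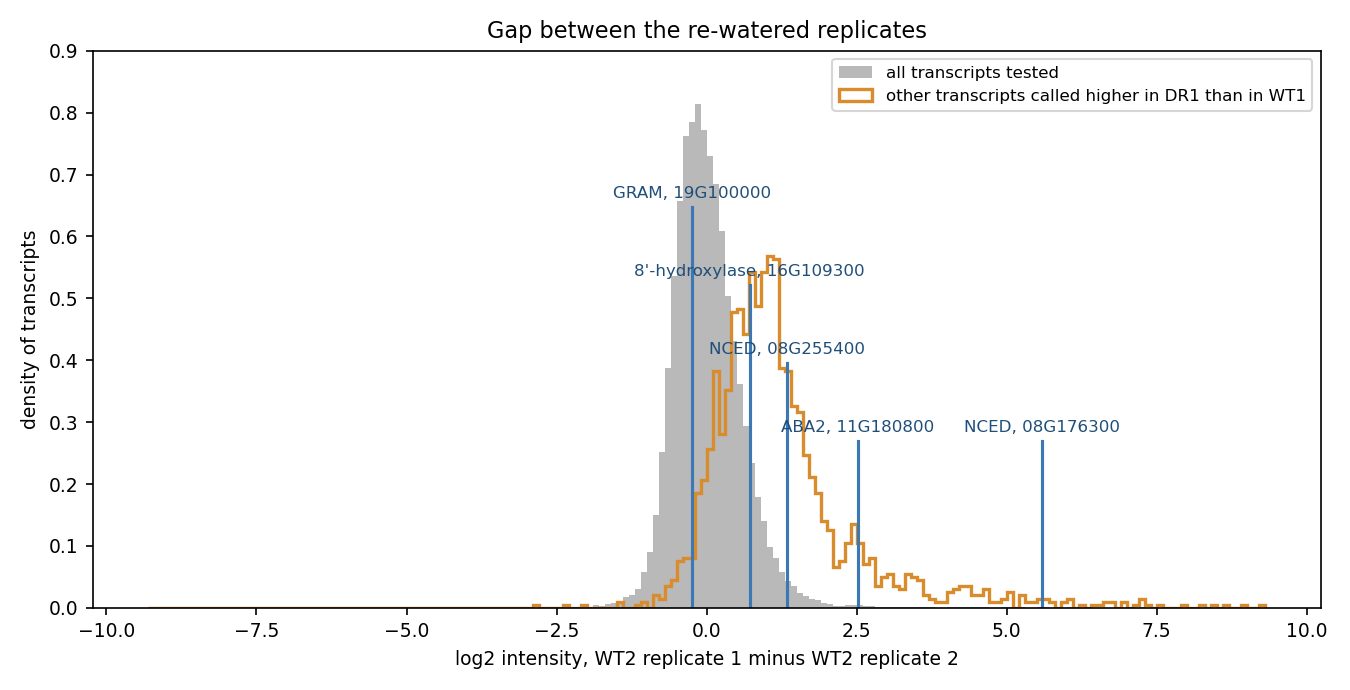
Distribution over transcripts (density) of the log2 intensity on WT2 replicate 1 minus that on WT2 replicate 2, in grey for all 55087 transcripts tested and as an orange outline for 1990 other transcripts called higher in DR1 than in WT1, with blue lines at the 5 ABA transcripts. Glyma.08G176300-1 lies at 5.59 and ABA2 at 2.52, and the GRAM transcript at -0.24 is the only one of the 5 left of zero.

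Other ABA-related transcripts could be found only where the study's supplementary annotation names them, in sheets that hold transcripts the study selected on these arrays, so they are not independent of the pattern. They comprised 14 entries of 7 other loci, of which 10 were tested. With the 2 further entries of the 8′-hydroxylase locus, 12 entries were tested. Of these, 6 were called higher and 1 lower in DR1 than in WT1, against 3.62% and 3.85% of all transcripts tested. In DR2 against WT2, 11 were called higher, against 13.1% of all. In DR2 against DR1, 9 were called higher, against 6.86% of all. In WT2 against WT1, 0 were called, against 0.387% of all called higher and 0.049% lower. In limma's test 2 of the 12 had an unadjusted p under 0.05 in that last comparison. Their median change was 2.15 for DR1 minus WT1 and 3.36 for DR2 minus DR1 on the log2 scale, against 0.05 and -0.08 over all transcripts tested.

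Protein phosphatases of clade A, which hold the ABA signal off by keeping SnRK2 kinases inactive until the hormone binds its receptors, were represented by 3 loci with 6 entries. Of these entries 5 were called higher in DR1 than in WT1 and 4 higher in DR2 than in DR1, against 3.62% and 6.86% of all transcripts tested. Glyma.11G018000-1 had intensities of 1423 and 1075 in DR1, against 54.6 and 36.4 in WT1, and then 14740 and 13303 in DR2, so it followed the pattern of the 5 ABA transcripts. Glyma.01G225100-1 did so in its mean over probes, at 183 and 154 in DR1, against 27.3 and 29.9 in WT1, and 2162 and 1128 in DR2. Of its 3 probes, 1 showed no rise in DR1, at 21.5 and 24.2 against 22.9 and 29.0 in WT1, not well above background in either. The changes of Glyma.11G018000-1 and Glyma.01G225100-1 for DR2 minus DR1 were 3.50 (SE 0.56) and 3.22 (SE 0.40) on the log2 scale. They are given as a description because the sheets that name these transcripts were drawn from this comparison. Over the 39 entries that the same sheets annotate with the PP2C phosphatase domain, 30 were called higher and 6 lower in DR1 than in WT1. In DR2 against DR1, 13 were called higher and 1 lower. This wider list was taken up after its values were seen, and its sheets hold transcripts selected on these arrays. Its counts therefore follow in part from that selection and are given as a description. Array-wide shares were 3.62% up and 3.85% down in the first comparison, and 6.86% up and 8.45% down in the second.

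Glyma.14G162100-1, which the study relates to the Arabidopsis phosphatase HAI1, was past 4-fold in the first step and not in the second. It had 36484 and 37610 in DR1, against 307 and 312 in WT1, a rise of 6.90 (SE 0.89) on the log2 scale and the largest of these phosphatase entries in the first drought. In DR2 it had 40936 and 60159, a change of 0.42 (SE 0.89) from DR1. Its WT2 arrays stood at 6636 and 581, an 11.4-fold gap with replicate 1 again the brighter, and without either of them the SE of that change was 0.23. The other tested entry of the locus, Glyma.14G162100-3, had 671 and 766 in DR2, against 312.0 and 312.0 in DR1, a change of 1.20 (SE 0.48, or 0.22 without either WT2 array) that also stayed under 4-fold.

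The GRAM-domain list held 3 further loci with 7 entries, of which 3 were tested. Glyma.06G177800-1 had 477 and 284 in DR1, against 13.9 and 20.5 in WT1, and 13118 and 10094 in DR2, a rise of at least 14.7-fold followed by 31.3-fold for DR2 over DR1. In its mean over probes, Glyma.04G187900-1 had 36.0 and 32.2 in DR1, against 12.7 and 16.0 in WT1, and 1803 and 966 in DR2. That mean passed the call threshold in the second step alone, at 5.28 (SE 0.31). No probe was well above background in WT1, so the first rise has only a lower bound, at least 1.36-fold. Of its 3 probes, 1 was well above background in DR1, at 213 and 123. The other probes were not, so the size of its first rise is not settled. Glyma.06G177800-1 and Glyma.04G187900-1 have as Arabidopsis equivalent a protein with C2 and GRAM domains that is not the ABA-responsive protein itself. Glyma.07G176400-1 did not pass the filter.

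The only other annotated entry of the carotenoid cleavage family, Glyma.05G140900-1, moved opposite to the NCED transcripts in the first drought. It had 55.3 and 58.6 in DR1, against 255 and 234 in WT1, a change of -2.10 (SE 0.58) on the log2 scale, in the comparison from which its sheet was drawn. The family also holds enzymes that cut other carotenoids, and the annotation used here does not say which enzyme this is. In DR2 its arrays gave 205 and 44.4, the second with no probe well above background, so its level in the second drought is not settled. Its call in DR1 was lost without either DR1 array or either WT1 array.

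**Figure D4:**
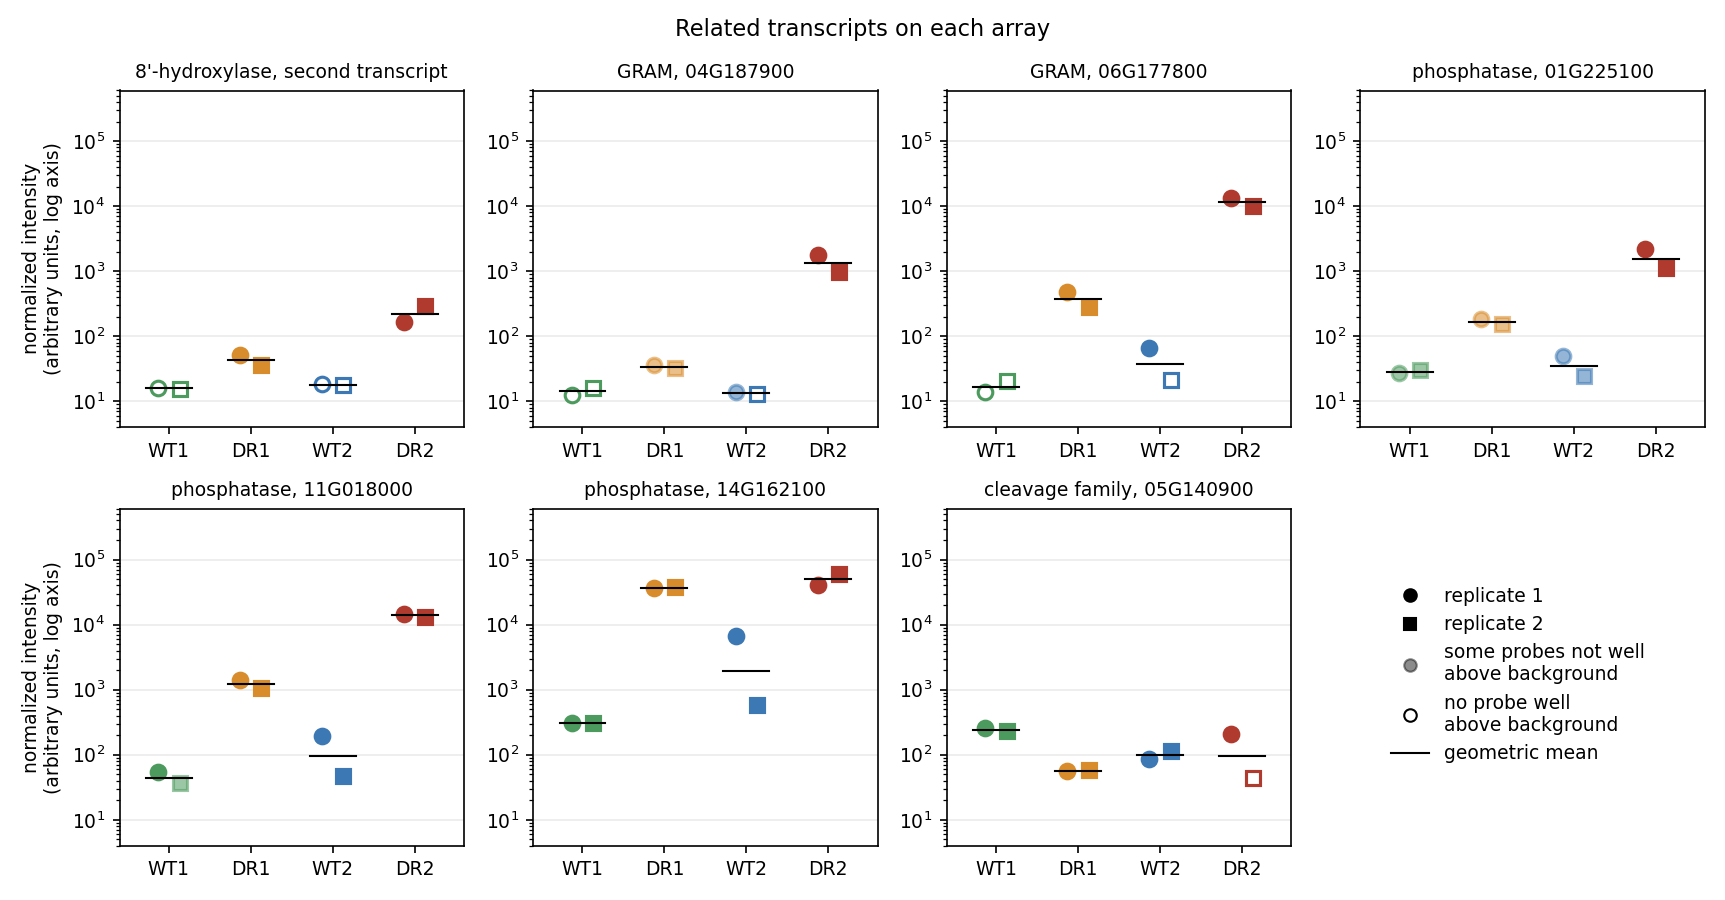
Normalized intensity (arbitrary units, log axis) of 7 related transcripts on each of the 8 arrays, by condition in order of treatment, with symbols as for the 5 ABA transcripts. In every panel other than that of Glyma.05G140900-1, every DR2 point lies above every DR1 point. For Glyma.14G162100-1 that step is small, 0.42 on the log2 scale, from 36484 and 37610 in DR1 to 40936 and 60159 in DR2.

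The 5 transcripts also resembled one another over the 8 arrays, with Pearson correlations of their log2 intensities between 0.83 and 0.99 over the 10 pairs. The conditions and arrays are shared by all of them and the choice of the transcripts fixes much of this, so no test was made. The lowest value was that of Glyma.08G176300-1 with the GRAM transcript, whose WT2 replicates differ in opposite directions. The transcripts of other loci most like each of the 5, taken as the 3 with the highest correlation over the 8 arrays, had correlations from 0.996 to 0.999.

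For 8 of these 15 transcripts the annotation used here gives a name or domain. Glyma.08G176300-1 was most like Glyma.15G250100-1, which has no annotation here, and Glyma.12G221500-1, a NAC-domain transcription factor related to Arabidopsis ANAC055, at 5858 and 5894 in DR1, 953 and 60.7 in WT2, and 29987 and 18474 in DR2. Its 3 nearest transcripts were all brighter on WT2 replicate 1 than on replicate 2, by 3.97 to 6.01 on the log2 scale, a gap that entered the correlation they were chosen on. ABA2 was most like Glyma.12G100500-1, related to isocitrate lyase, an enzyme of the glyoxylate cycle, with 49693 and 61098 in DR2, against 2264 and 926 in DR1. Among the nearest of the others were Glyma.08G089400-1 and Glyma.12G067100-1, both cytochrome P450 entries, Glyma.20G220100-1, related to a phloem lectin, and Glyma.10G223200-1, which carries the AP2 domain of a large family of transcription factors.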

How the data were processed

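RNA from soybean leaves was labelled with cyanine 3 and hybridised to single-colour Agilent arrays. Per the file headers, the deposited intensities are spot medians and local background medians from Feature Extraction 11.5.1.1. The authors also deposited normalized intensities for 60386 transcripts, made with limma, which served as an alternative. Signals were corrected with limma's normexp (limma 3.58.1, R 4.3.3; offset 0), quantile normalized over all spots, and averaged as log2 over probes after control and outlier spots (2 to 11 per array) were left out. The mean signal was not among the columns. The test covered transcripts with 1 or more probes called well above background on the 2 arrays of some condition. A group-means model over 8 arrays was fitted with lmFit and eBayes, checked on simulated data. Below-background values were raised to the lowest well-above-background signal for "at least" folds.

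The 5 transcripts, the lists and the tests were chosen with earlier results of these data known. The planned pathway lists relied on gene descriptions that the tables used here do not pair with these loci, so the lists were filled from supplementary annotation of transcripts the study selected, partly shortened, and steps without an annotated entry, seed markers and sequences are not analysed here. Leaf markers were the entries whose supplementary annotation names the chlorophyll-binding or RuBisCO small subunit families. Named transcripts are the 5, other entries of their loci, up to 3 called entries per list and comparison in each direction, and the 3 with the most similar profiles; Glyma.07G176400-1 was added after its values were seen. Alternatives were the authors' table, the processed signal scaled to the 75th percentile, an offset of 50, 75th-percentile scaling, the median over probes, other filters on dim probes, only the conditions compared, the replicate number as a block, a 2-fold threshold, both pairs past 4-fold, single probes and each array left out.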

Additional observations from a re-analysis of the deposited data

Results flagged for a closer look

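The rise from watered to drought leaves differed between the first and the second drought for 9 of 12 tested entries related to the 5 transcripts, by limma's test of that difference. Over all transcripts tested, 7.62% were called higher in that difference and 10.4% lower. The loci of the 9 entries were selected on these arrays, so the values are descriptions. Among phosphatase entries the second rise was larger by 2.92 (SE 0.56) on the log2 scale for Glyma.01G225100-1, 2.41 (SE 0.79) for Glyma.11G018000-1, 2.84 (SE 0.90) for Glyma.11G018000-1_UE and 3.35 (SE 0.36) for Glyma.11G018000-2. Among GRAM-domain entries it was larger by 5.37 (SE 0.44) for Glyma.04G187900-1, 3.83 (SE 0.71) for Glyma.06G177800-1 and 3.98 (SE 0.71) for Glyma.06G177800-1_UE. The further entries of the 8′-hydroxylase locus gave 3.13 (SE 0.32) for Glyma.16G109300-1_UE and 2.15 (SE 0.43) for Glyma.16G109300-2. For 7 of the 9 entries the WT1 level was not well above background on either array or on 1 of them, so that the first rise is limited by the background there. Leaving out 1 array at a time left 6 to 9 of the 9 called, the lowest without DR1 replicate 2. Glyma.11G018000-1 lost its call without any one array other than WT2 replicate 1, and its _UE entry without any other than WT2 replicate 1 and DR2 replicate 2. Without WT2 replicate 2 their differences were 1.40 and 1.64, under the threshold. Glyma.16G109300-2 lost its call at 1.89 without DR1 replicate 2 and at 1.76 without DR2 replicate 2. With 2 arrays in a condition, no outlier test was run.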

How the results depend on the processing

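The directions of the changes of the 5 transcripts in DR1 against WT1, DR2 against WT2 and DR2 against DR1 were the same in every alternative run. With an offset of 50, which compresses dim signals by construction, Glyma.08G255400-1 and Glyma.16G109300-1 rose by 1.54 and 1.59 in DR1, under the threshold. Glyma.19G100000-1 fell under it at 1.87 with that offset, at 1.96 with 75th-percentile scaling, at 1.83 without WT1 replicate 1, at 1.84 without DR1 replicate 1 and at 1.99 with one of its probes; the cause was not tested.

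For WT2 minus WT1, leaving out 1 array gave -1.76 to 3.83 for Glyma.08G176300-1, -0.049 to 1.30 for Glyma.08G255400-1 and -0.28 to 0.44 for Glyma.16G109300-1, each negative without WT2 replicate 1, and one probe of Glyma.16G109300-1 alone gave -0.089. Of the 12 related entries, 11 were called in DR1 against WT1 at a 2-fold threshold, against 7 at 4-fold. Leaving out 1 array gave 6 to 7 calls for DR1 against WT1, 0 to 3 for WT2 against WT1, 11 for DR2 against WT2, 8 to 9 for DR2 against DR1 and 6 to 9 for the difference between responses.

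The differences between replicates correlated from -0.31 to 0.29 between conditions, which cannot show whether same-numbered arrays came from the same experiment. With the replicate number as a block the related entries gave 7, 0, 11, 9 and 9 calls, the same counts as without it, in those 5 comparisons.

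Over the whole array, 240 transcripts were called in WT2 against WT1, 117 with an offset of 50, 482 with the processed signal, 1854 at 2-fold, 0 without either WT1 array, 433 without WT2 replicate 1 and 417 without WT2 replicate 2. An offset of 50 gave 2629 calls against 4117 for DR1 against WT1, 10152 against 15592 for DR2 against WT2, 4956 against 8437 for DR2 against DR1 and 5909 against 9905 for the difference between responses. At 2-fold these comparisons had 12664, 31046, 22151 and 22301 calls. Scaling by the 75th percentile shifted the median of all transcripts by -0.15, 0.20 and 0.22 on the log2 scale in DR1 against WT1, DR2 against DR1 and the difference between responses, less than any change of the 5 transcripts called there. Signals below background in WT1 limit the first rise of ABA2 and Glyma.08G255400-1.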
